A study of Mus musculus with 2 samples.

Results

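The genes described here are 10 stromal matrix genes: the fibrillar collagen genes Col1a1, Col1a2 and Col3a1, the small leucine-rich proteoglycan genes Dcn, Lum and Bgn, and Col4a1, Fn1, Sparc and Fbn1. They were taken by name as all non-control array probes annotated to these symbols, which gave 22 probes for 10 of the 27566 genes named on the array. RNA was measured in pancreatic lymph nodes of female NOD mice aged 16 weeks, an inbred strain that develops autoimmune diabetes without any induced mutation. The hyperglycemic group was 2 mice with blood glucose above 500 mg/dl, each labelled with Cy5 on an array of its own. The euglycemic mice, below 200 mg/dl, were 2 animals of the same strain, sex and age whose RNA was pooled, labelled with Cy3 and put on both arrays. The pool therefore counts as 1 control sample, its own spread was not measured, and with Cy5 always on the hyperglycemic side a dye effect on a gene cannot be told apart from the difference between the groups. The comparison asks which transcripts of the draining lymph node differ once mice are hyperglycemic.

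Fibrillar collagens are triple-helical proteins that assemble into the fibres giving tissue its tensile strength. Small leucine-rich proteoglycans have a horseshoe-shaped core protein that binds the surface of collagen fibrils and regulates how they assemble and how thick they grow. In a lymph node, fibroblastic reticular cells make and wrap a mesh of collagen fibres, the conduit system, which also contains basement membrane and microfibril proteins. In whole tissue, a lower signal from fewer stromal cells and one from less RNA per cell cannot be told apart.

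Both array scans had a dim Cy5 channel. The Cy5 median (hyperglycemic mice 1 and 2) was 37.7 and 38.2, close to its local background of 35, whereas the Cy3 median (pool, arrays 1 and 2) was 234 and 81.2 over 31 and 31.5. The share of gene spots clear of background was 14.5% and 16.4% in Cy5, against 21.7% and 63.0% in Cy3. On array 1 the Cy3 background was uneven, with a median of 138 in the first 100 rows of spots and 27 in the last 100. Array 2 had 29.5 and 29 in the same rows. No gene spot was saturated. The log2 ratios of the arrays correlated at 0.843 across the probes of the scanner signals and 0.828 across those of the deposited ratios. This is a description across probes, and both arrays share the RNA of the pool.

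Ratios are given as log2 of the hyperglycemic mouse over the pool, so positive values are higher in hyperglycemia. The processed ratio is that of the scanning software's background-subtracted, dye-normalized signals. For the probes that the authors deposited it is the same value as theirs, and these were all but 1 of the probes whose signals cleared background in every reading. The scanner-signal ratio was recomputed here from the raw spot signals. It adds an offset of 50 to each background-corrected signal, and by construction this draws the ratio of a dim spot towards 0. Each was tested against 0 with limma over all its probes, with Benjamini-Hochberg adjustment, and called at an adjusted p under 0.05. For each probe limma combines the spread between these 2 mice with the spread pooled over all probes of the fit. A call does not concern the spread among euglycemic mice.

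The 3 proteoglycan genes had higher processed signals in both hyperglycemic mice than in the pool, and the 3 fibrillar collagen genes had lower ones. Col1a1 was not well above background in Cy5 on either array, and Bgn was not in Cy3 on array 1. Their directions thus rest partly on which channel was detected, and 2 genes of each family were clear of background in every reading. Lum and Dcn rose in the deposited ratios, by 2.29-fold and 2.01-fold, and Col3a1 fell 1.70-fold. These 3 calls came from the 5 matrix genes that the deposited ratios contain (Col1a2, Col3a1, Dcn, Lum and Sparc). Of the 4405 genes tested there, 25% were called higher and 18.4% lower, 43.5% in all, so 3 of 5 is not read as particular to the matrix genes. In the scanner-signal fit 0 of 8 tested matrix genes were called by limma, and 2, Dcn and Lum, had an unadjusted p under 0.05. Of the 7294 genes tested there, 5.14% were called higher and 0.494% lower, 5.63% in all. At an unadjusted p under 0.05 limma had 850 of these genes higher and 661 lower, so 2 of 8 is not read as particular to the matrix genes. The median log2 ratio of the matrix genes was -0.12 over 8 genes in the scanner-signal fit, where that of all genes was -0.03, and -0.30 over 5 genes in the deposited ratios, where that of all genes was 0.06.

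**Figure D1:**
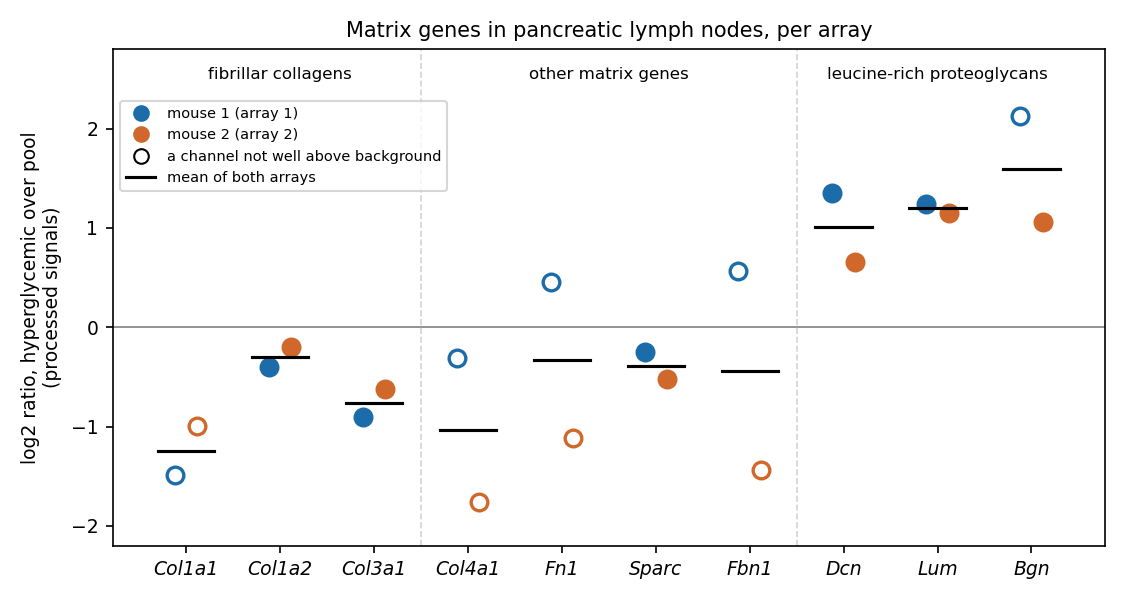
Processed log2 ratio (hyperglycemic mouse over pool, vertical axis) of each matrix gene, with 1 point per array, bars for the mean of both, and open points where a channel was not well above background. The fibrillar collagens lie below 0 on both arrays and the proteoglycans above it, while Fn1 and Fbn1 have opposite signs on the arrays.

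Col1a1 and Col1a2 encode the chains of type I collagen, the main fibre-forming collagen, and Col3a1 encodes the chain of type III collagen, which forms the thin reticular fibres of lymphoid organs. Their brightest probes lie at mm8 chr11:94767851-94767910 (Col1a1), chr6:4490619-4490678 (Col1a2) and chr1:45293290-45293349 (Col3a1). The files give these positions without exons, so the exon or UTR of a probe is not stated here. Col3a1 had processed signals of 584 and 989 in hyperglycemic mice 1 and 2, against 1092 and 1521 in the pool on the same arrays. Both mice lay below both readings of the pool. The deposited log2 ratios were -0.90 and -0.62, with a mean of -0.76 ± 0.20 (SD, n = 2; SE 0.161; limma adjusted p = 0.0090). The scanner-signal ratios of Col3a1 ran the same way at -0.13 and -0.30, with a mean of -0.21 ± 0.12 (SD, n = 2) that limma did not call (adjusted p = 0.332).

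Col1a2 had processed signals of 1723 and 3032 in the hyperglycemic mice, against 2267 and 3484 in the pool. On each array the mouse was the dimmer channel, although the ranges overlap between arrays. The log2 ratios of -0.40 and -0.20 averaged -0.30 ± 0.14 (SD, n = 2), 1.23-fold lower, and were not called in the deposited ratios (limma adjusted p = 0.161) or in the scanner signals, at -0.18 ± 0.03 (adjusted p = 0.357).

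Col1a1 was read on 10 spots of the same probe, scattered over each array, and its Cy5 signal was not well above background on either array. Its processed signals averaged 204 and 412 in the hyperglycemic mice, against 545 and 799 in the pool, which was well above background on both arrays. The hyperglycemic mean lay below the pool on each array, with processed log2 ratios of -1.49 and -0.99. Of the spots retained, 8 of 8 on array 1 and 9 of 9 on array 2 were lower in the hyperglycemic mouse. Their log2 ratios ran from -2.58 through a median of -1.32 to -0.84 on array 1 (SD 0.547) and from -1.55 through -0.88 to -0.60 on array 2 (SD 0.365). Spots of a probe share the RNA of the array and are technical repeats. Because Cy5 was dim, no fold is given for Col1a1, and its scanner-signal mean of -0.16 ± 0.11 (SD, n = 2) was not called (limma adjusted p = 0.439).

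**Figure D2:**
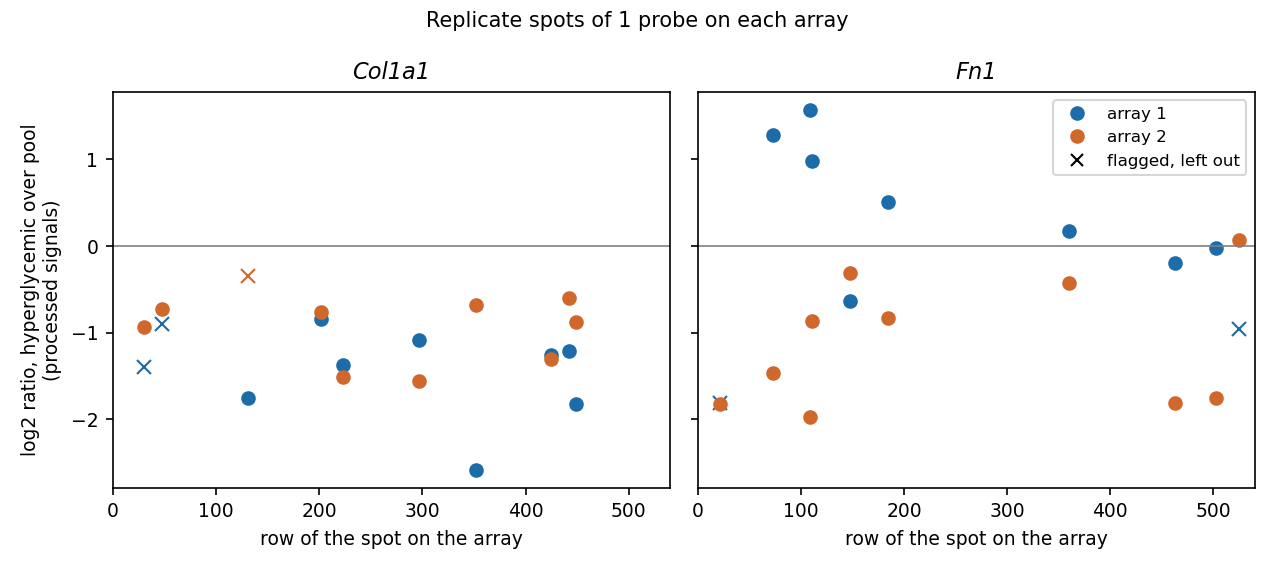
Processed log2 ratio of each of the 10 repeated spots of Col1a1 and of Fn1 (vertical axis) against the row of the spot on the array (horizontal axis), coloured by array, with crosses for spots the scanning software marked and that were left out. All retained Col1a1 spots lie below 0 on both arrays, whereas Fn1 spots lie on both sides of 0 on array 1.

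Dcn encodes decorin, a proteoglycan with a single glycosaminoglycan chain that binds collagen and TGF-beta. Its probe at mm8 chr10:96947287-96947346 was clear of background in every reading. The processed signals were 42698 and 37393 in the hyperglycemic mice, against 16769 and 23640 in the pool. Both mice were above both readings of the pool. The deposited log2 ratios of Dcn were 1.35 and 0.66, with a mean of 1.00 ± 0.49 (SD, n = 2; SE 0.198; limma adjusted p = 0.0070).

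The scanner-signal ratios of Dcn were 3.89 and 1.58, averaging 2.73 ± 1.64 (SD, n = 2; SE 0.524), and limma did not call them (unadjusted p = 0.0034 and adjusted p = 0.0593 from limma across all probes). The arrays differed more there than in the deposited ratios. Among tested genes 160 were brighter than Dcn, and their median scanner-signal ratio was 2.92, slightly above the ratio of Dcn. In decile 10, the brightest, the median was 0.75, and that decile held 314 of the 375 genes called higher. In the deposited ratios the 160 genes brighter than Dcn had a median of 0.07, and Dcn was at 1.00. There the dimmest genes stood apart, with a median of 0.68 in decile 1, where 283 of 440 genes were called higher and 0 lower by limma. The called matrix genes lay in deciles 4 (Lum), 5 (Col3a1) and 10 (Dcn) of the deposited ratios, whose medians were -0.07, -0.07 and 0.03. Median centring in place of loess moved the median of all genes by -2.03 and put Dcn at -2.69, so that under that scaling Dcn lay below the median of all genes. How far brightness takes part in the scanner-signal value of Dcn was not tested.

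**Figure D3:**
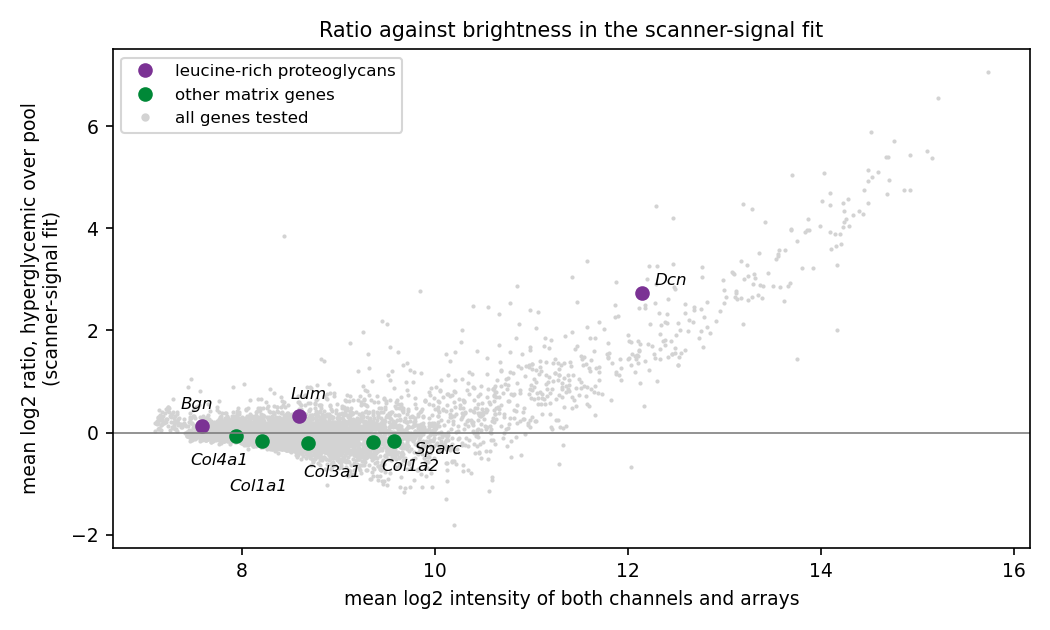
Mean scanner-signal log2 ratio (hyperglycemic over pool, vertical axis) against the mean log2 intensity of both channels and arrays (horizontal axis), with all 7294 tested genes in grey and the 8 tested matrix genes coloured. Ratios of all genes climb at high intensity, where Dcn lies, and the other 7 matrix genes lie in the part near 0.

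Lum encodes lumican, a proteoglycan with keratan sulfate chains that limits the diameter of collagen fibrils in the cornea and skin. Its probe at mm8 chr10:97002264-97002323 had processed signals of 1805 and 2567 in the hyperglycemic mice, against 762 and 1158 in the pool. The mice lay above both readings of the pool, and the mice differed little in ratio. The deposited log2 ratios of 1.24 and 1.15 averaged 1.20 ± 0.07 (SD, n = 2; SE 0.153; limma adjusted p = 0.0016). In the scanner signals Lum was at 0.20 and 0.45, with a mean of 0.32 ± 0.18 (SD, n = 2) that was not called (limma unadjusted p = 0.0288 and adjusted p = 0.201). The 2943 genes brighter than Lum had a median of -0.03 there. Under median centring Lum was at -1.94 and Bgn, described next, at -0.61, both above the shift of all genes of -2.03. Col1a1 at -1.95 and Col4a1 at -1.45 lay above that shift as well, and Dcn at -2.69 lay below Col3a1 at -2.62.

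Bgn encodes biglycan, a close relative of decorin that also acts as a danger signal through Toll-like receptors when released from matrix. Its probe at mm8 chrX:69745935-69745994 read 470 and 502 in the hyperglycemic mice, against 108 and 241 in the pool, which was not well above background on array 1. The mice were again above the pool on both arrays, at processed log2 ratios of 2.13 and 1.06, of which the first rests on that dim pool signal. Bgn is not among the deposited ratios, and its scanner-signal mean of 0.14 ± 0.04 (SD, n = 2) was not called (limma adjusted p = 0.487).

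**Figure D4:**
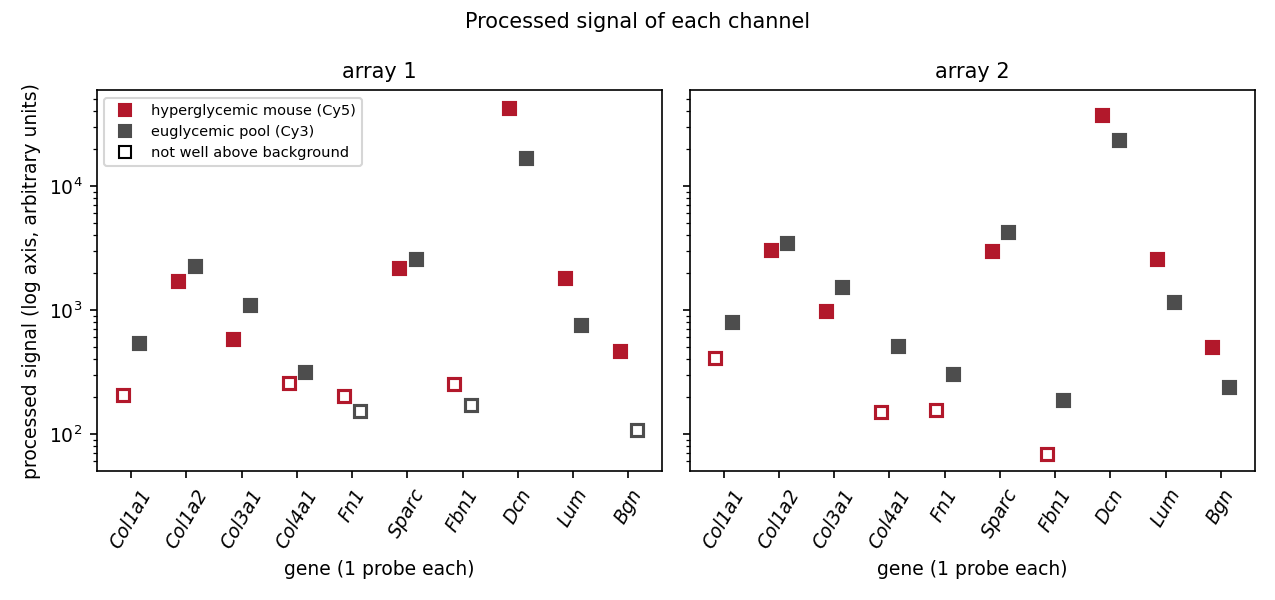
Processed signal (logarithmic vertical axis, arbitrary units) of the hyperglycemic mouse and of the pool for the brightest probe of each matrix gene, with 1 panel per array and open squares for signals not well above background. Signals of different probes are not compared. Col1a2, Col3a1, Sparc, Dcn and Lum are the 5 genes with both channels filled on both arrays.

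The families were compared by the difference of their median log2 ratios on each array, fibrillar collagens minus small leucine-rich proteoglycans. In the processed ratios the collagen median was -0.90 on array 1 and -0.62 on array 2, and the proteoglycan median was 1.35 and 1.06. The difference was -2.25 and -1.68, with a mean of -1.97 ± 0.40 (SD, n = 2 arrays). On both arrays each collagen gene lay below each proteoglycan gene, with Col1a1 dim in Cy5 on both arrays and Bgn dim in Cy3 on array 1. The deposited ratios leave out both of these genes. In the deposited ratios, with 2 genes of each family (Col1a2 and Col3a1 against Dcn and Lum), the differences were -1.95 and -1.32, with a mean of -1.63 ± 0.45 (SD, n = 2). In the scanner signals they were -0.32 and -0.69, with a mean of -0.51 ± 0.26 (SD, n = 2). There too no gene of one family reached the range of the other on either array, except under median centring, where the ranges overlapped on both arrays. With 2 arrays the smallest two-sided p of an exact sign-flip permutation test is 0.5, so the family difference has no test here. As a description of these arrays, its direction was the same on both arrays under every processing tried. Its size depended strongly on the processing, with means from -0.51 in the scanner signals to -1.97 in the processed ratios.

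**Figure D5:**
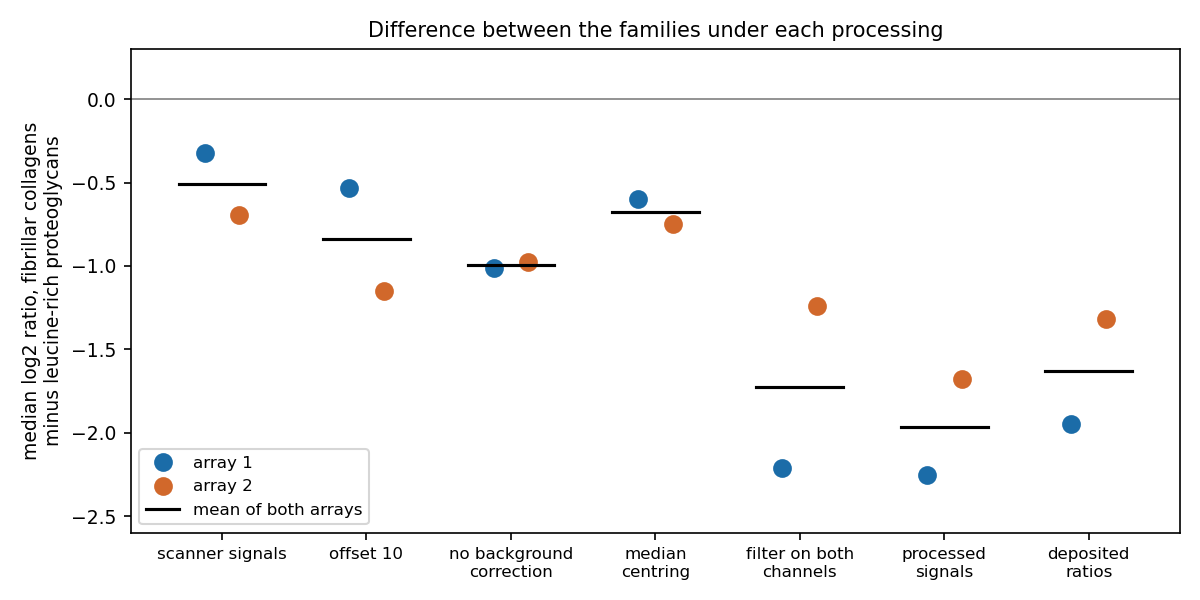
Median log2 ratio of the fibrillar collagens minus that of the small leucine-rich proteoglycans (vertical axis) under each processing, with 1 point per array and bars for the mean of both. All points lie below 0, from -0.32 in the scanner signals of array 1 to -2.25 in the processed signals of array 1.

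Promoter sequence is shown for both families because their ratios lay on opposite sides of 0. The RefSeq promoter table (GRCm38.p6) holds 6 of the 10 genes. Dcn, Lum and Col1a1 are not among them. The proteoglycans are thus shown by Bgn alone, which is not among the deposited ratios and does not stand for Dcn or Lum. The 250 bases before the transcription start are printed for Col1a2 (chr6:4505368-4505617, plus strand), Col3a1 (chr1:45311288-45311537, plus strand) and Bgn (chrX:73483351-73483600, plus strand). Capitals mark every match, on either strand, to CCAAT, the box bound by NF-Y, to TATAAA, the TATA box, and to GGGCGG, the GC box bound by Sp1.
Col1a2: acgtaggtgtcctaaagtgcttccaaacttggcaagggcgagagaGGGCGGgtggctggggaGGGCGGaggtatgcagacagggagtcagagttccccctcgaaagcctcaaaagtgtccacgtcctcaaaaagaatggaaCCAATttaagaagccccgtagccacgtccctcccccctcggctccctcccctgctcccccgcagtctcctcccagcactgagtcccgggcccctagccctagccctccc
Col3a1: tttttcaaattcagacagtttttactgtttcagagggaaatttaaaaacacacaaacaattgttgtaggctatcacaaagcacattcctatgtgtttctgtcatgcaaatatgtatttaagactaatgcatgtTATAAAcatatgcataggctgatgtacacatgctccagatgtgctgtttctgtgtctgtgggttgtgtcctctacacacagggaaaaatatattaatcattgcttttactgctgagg
Bgn: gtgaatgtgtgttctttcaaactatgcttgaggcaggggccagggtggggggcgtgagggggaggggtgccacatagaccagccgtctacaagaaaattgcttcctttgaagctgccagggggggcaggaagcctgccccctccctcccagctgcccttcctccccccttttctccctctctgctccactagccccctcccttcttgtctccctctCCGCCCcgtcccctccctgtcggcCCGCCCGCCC
Col1a2 held CCAAT from 109 to 105 bases before the start and GGGCGG beginning 205 and 188 bases before it. Col3a1 held TATAAA beginning 117 bases before the start and neither of the other motifs. Bgn held the reverse complement CCGCCC beginning 34, 10 and 6 bases before the start, and the last 2 of these overlap. Among 32851 promoters of the same length, 33.8% held CCAAT, 12.4% TATAAA and 32.7% GGGCGG. A match describes these letters and not a bound site.

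The other matrix genes comprised a basement membrane collagen, a matricellular protein, an adhesive glycoprotein and a microfibril protein. Sparc encodes osteonectin, a matricellular protein that binds collagen and assists its deposition. Its brightest probe (mm8 chr11:55239370-55242027) read 2176 and 2985 in the hyperglycemic mice, against 2588 and 4284 in the pool. Each mouse was below the pool on its own array, at deposited log2 ratios of -0.25 and -0.52, and the mean of -0.39 ± 0.19 (SD, n = 2) was not called (limma adjusted p = 0.0887). The second Sparc probe gave -0.80 and 0.04, so it was lower in hyperglycemic mouse 1 alone, and was not called (limma adjusted p = 0.194). On array 1 that probe lay in row 12 with a Cy3 background of 646.5, and the brightest one in row 94 with 161.5. The part of that background in the ratio was not tested.

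Col4a1 encodes a chain of type IV collagen, the network-forming collagen of basement membranes. Its probe (mm8 chr8:11198981-11199040) read 255 and 150 in the hyperglycemic mice, with Cy5 not well above background on either array, against 316 and 509 in the pool. Both ratios were below 0 but far apart, at -0.31 and -1.76. No fold is given for Col4a1 either, and its scanner-signal mean of -0.07 ± 0.08 (SD, n = 2) was not called (limma adjusted p = 0.725).

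Fn1 encodes fibronectin, an adhesive glycoprotein that integrins bind, and Fbn1 encodes fibrillin-1, the main microfibril protein. Fn1 (mm8 chr1:71524056-71526293) read 204 and 155 in the hyperglycemic mice, against 153 and 306 in the pool. Only the pool on array 2 was well above background, so no fold is given. Of its repeated spots, 5 of 8 were higher and 3 lower in the mouse on array 1, and 1 of 10 was higher and 9 lower on array 2. Their log2 ratios ran from -0.63 to 1.57 on array 1 (SD 0.767) and from -1.97 to 0.07 on array 2 (SD 0.737). This probe thus had no common direction in the arrays. The second Fn1 probe was higher in both mice, at processed log2 ratios of 0.25 and 0.81, with its Cy5 signal dim as well.

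Fbn1 (mm8 chr2:124992432-124992491) read 252 and 69.2 in the hyperglycemic mice, against 171 and 188 in the pool, with processed log2 ratios of 0.56 and -1.44. Its second probe gave -0.12 and -0.92. The first probe lay in row 84, where the Cy3 background was 212 on array 1 and 32 on array 2. Neither Fn1 nor Fbn1 was tested, since their Cy5 signal was dim and their Cy3 signal was well above background on a single array. Of the 12 probes that are not the brightest of their gene, 11 were too dim to test, and their scanner-signal log2 ratios on single arrays ran from -0.16 to 0.15. Their processed log2 ratios ran from -0.92 (Fbn1) to 0.81 (Fn1), both on array 2. The other Col3a1 probes, dim in every reading, gave processed ratios of 0.31 and 0.12, and of 0.23 and -0.09. They did not share the direction of the brightest Col3a1 probe on both arrays. Of all 22 probes, 7 were dim in both channels on both arrays.

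Other matrix genes were taken from 11 lists of 151 genes, with 37 tested among the deposited ratios and 58 among the scanner signals. In the deposited ratios 15 rose, 1 fell and 21 were not called, with a median log2 ratio of 0.34. The share called in either direction, 43.2%, was near the 43.5% of all genes, so the number of calls is not read as particular to matrix genes. By direction the lists differed from all genes. Those called higher were 40.5%, against 25% of all genes, and 1 of 37 was called lower, against 18.4%. Nearly all deposited probes were clear of background in both channels. A dim gene that was lower in Cy5, the hyperglycemic channel, could thus be absent, and Col1a1 and Col4a1 are absent there. All genes of the deposited ratios share this condition. Over the 58 list genes of the scanner signals the median log2 ratio was 0.015, where that of all genes was -0.03. Whether the split by direction in the deposited ratios is particular to matrix genes was not tested. Of the 15 that rose, at least 3 lay in decile 1 of brightness and at least 3 in decile 2, where higher calls were most frequent among all genes. Not every one of the 15 was assigned a decile. In the scanner signals 3 rose, 0 fell and 55 were not called by limma, where 5.14% of all genes were called higher and 0.494% lower. At an unadjusted p under 0.05 limma had 11 of the 58 higher and 1 lower. Among all 7294 genes it had 850 higher and 661 lower at that threshold. The number of scanner-signal calls is thus not read as particular to matrix genes either. The values below are mean deposited log2 ratios ± SD (n = 2), and the adjusted p of each is under 0.05 in limma. Among adhesive and matricellular genes, Sparcl1, a relative of Sparc also called hevin, was at 1.97 ± 0.36 and Matn2, a matrilin, at 1.52 ± 0.24. Mgp, an inhibitor of calcification, was at 1.43 ± 0.23, and the growth-factor-binding Ctgf at 0.85 ± 0.06. Periostin (Postn), which promotes collagen cross-linking, was the single gene that fell, at -0.46 ± 0.14 (limma adjusted p = 0.0498).

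Among enzymes that make and trim collagen, the chaperone Serpinh1 was at 0.90 ± 0.14, Fkbp10 at 0.70 ± 0.22 and the prolyl hydroxylase subunit P4hb at 0.53 ± 0.08. These 3 of 5 tested collagen-processing genes rose, where 25% of all genes did, and none of the 3 was called in the scanner signals. The protease inhibitors Timp3 (1.42 ± 0.51) and Timp2 (1.40 ± 0.32) and the membrane collagenase Mmp14 (0.94 ± 0.12) rose, 3 of 4 tested. Timp2 (1.84), Sparcl1 (1.57) and Timp3 (1.04) were also the genes called in the scanner signals. The elastic fibre genes Fbln5 (1.47 ± 0.72) and Emilin2 (0.85 ± 0.21), the anchoring fibril collagen Col7a1 (1.04 ± 0.02), the heparan sulfate proteoglycan Gpc1 (1.12 ± 0.05) and the TGF-beta signal transducer Smad2 (0.61 ± 0.28) rose as well. In the scanner signals the other genes named in these lists were not called, at ratios from -0.07 for Postn and 0.09 for Emilin2 to 0.55 for Mgp.

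Of the lists nearest to the families described here, no other fibrillar collagen of 8 listed could be tested. The other small leucine-rich proteoglycans had Ogn at 0.30 ± 0.23 (SD, n = 2), not called in the deposited ratios (limma adjusted p = 0.176). In the scanner signals Ogn was at -0.01 and Prelp at -0.21, neither called and both on the other side of 0 from Dcn, Lum and Bgn. Basement membrane genes gave 0 calls of 3 in the deposited ratios with limma, and 2 higher at an unadjusted p under 0.05. Matrix receptors gave 0 of 5 there, and 0 at an unadjusted p under 0.05. Of all 4405 genes of the deposited ratios, limma had 1314 higher and 1002 lower at that unadjusted threshold. These counts are therefore not read as particular to either list.

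Genes that mark the cells which could carry the matrix RNA moved in both directions in the deposited ratios, where 25% of all genes rose and 18.4% fell. Of 4 tested genes listed for fibroblastic reticular cells, Cxcl13 rose (0.71 in the deposited ratios) and Ccl19 (-1.04) and Thy1 (-1.28) fell. Mouse T cells express Thy1 as well, and its ratio lay in the range of the T cell markers, -1.86 to -1.15. The fall of Thy1 therefore cannot be assigned to reticular cells. The summed processed signal of the list, Thy1 included, was 43633 and 61072 in the hyperglycemic mice, against 63640 and 102657 in the pool. The direction of this list turned with the processing: its median was 0.92 in the scanner signals and -0.73 in the deposited ratios, and Ccl19 was at 1.01 in the scanner signals, not called (limma adjusted p = 0.140). Pdpn and Pdgfra, defining markers of fibroblastic reticular cells, were not among the tested genes. Smooth muscle and pericyte markers split between Tagln (1.88) and Acta2 (-1.51), with list sums of 11061 and 11748 in the mice, against 6177 and 10281 in the pool. Of 5 endothelial markers Kdr, Cldn5 and Lyve1 rose, with list sums of 7019 and 7388 in the mice, against 2937 and 4460 in the pool. All 5 tested T cell markers fell, with sums of 4919 and 8722 in the mice, against 13503 and 20927 in the pool. Of 10 exocrine pancreas markers, 6 rose and 2 fell, whereas in the scanner signals 9 rose and 1 was not called. Of the 5 T cell markers, 1 fell in the scanner signals. Of 4 tested adipocyte markers, Cidec (-1.91) and Cfd (-1.63) fell, with list sums of 21833 and 26645 in the mice, against 24440 and 37074 in the pool. Of 4 B cell markers 2 fell, and of 6 macrophage markers 2 rose and 1 fell. Whether shifts in these cells take part in the matrix ratios was not tested.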

How the data were processed

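Spots were quantified with Agilent Feature Extraction, version 10.7.3.1, per the file headers. The deposited spot and background columns hold raw scanner intensity. The processed signals are background-subtracted, detrended and dye-normalized intensity with surrogate values for spots not above background, and the log ratio column is log10 of Cy5 over Cy3, per the file headers. Its single-array p-value, per the file headers, was not used. The authors' deposited table holds log2 ratios for 5098 probes, 26 of them controls. They equal the scanner log10 ratios times 3.32, and how the probes were chosen is not given in the sources used here. Per the labels, 1 ug of RNA was amplified and labelled with an Agilent low-input kit.

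Here, signals were corrected by normexp (offset 50), loess-normalized array by array (span 0.3), and kept where at least 1 channel was well above background on both arrays (8815 probes). A probe was well above background where at least 0.5 of its unflagged spots were. limma 3.58.1 in R 4.3.3 tested each mean log2 ratio against 0 (two-sided, Benjamini-Hochberg over probes), and the deposited ratios (5072 probes) were tested alike without further scaling. The brightest probe stood for a gene. All matrix genes are named, and from each related list up to 4 called genes with the largest mean ratio. Postn is named in addition as the single gene of the matrix lists called lower, and Ogn and Prelp are named though not called. The members and lists were chosen with earlier results of these data known. Per the labels each hyperglycemic sample is 1 mouse. The p-values rest on the spread between these 2 mice, moderated by limma towards that of all probes in the fit, with the number of arrays limiting precision. Of 41174 gene probes, 23483 were named by accession, 6678 by symbol and 2887 by synonym, and 8126 kept the name in the file. Known changes were also put into simulated ratios whose spread was drawn as fitted. There the scanner-signal fit over 8815 probes recovered 96% of probes changed by a log2 of 1 and 10% of those changed by 0.5. The deposited-ratio fit over 5072 probes recovered 86% and 12%. The simulated ratios start after normalization, without the offset, the dim Cy5 channel or the trend with brightness. These shares therefore do not say how many real changes of that size were recovered. Alternatives changed the background correction, normalization, filter, variance trend and starting signals.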

Additional observations from a re-analysis of the deposited data

How the results depend on the processing

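The number of arrays and the dim Cy5 channel limit every value. No paired analysis was possible because both mice were hybridised against 1 pool, and leaving out a mouse leaves no residual spread, so no call could be repeated that way. The family difference ran from -0.69 to -0.32 in the scanner signals and from -1.95 to -1.32 in the deposited ratios when 1 array was left out. Its mean was -0.51 in the scanner signals, -0.84 with offset 10, -0.996 without background correction, -1.73 with both channels required above background, -1.97 in the processed signals and -1.63 in the deposited ratios. With median centring it was -0.67, and the families' ranges then overlapped.

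Genes called higher numbered 375 in the scanner-signal fit, 0 in the processed signals, 84 with both channels required, 582 with an intensity trend, 1 with median centring, 1018 without background correction, 23 without a filter, 80 with offset 10 and 1103 in the deposited ratios. Genes called lower numbered 36, and in the same order 0, 0, 436, 7133, 785, 0, 8 and 812. At an unadjusted p under 0.05 limma had 1052 higher and 1736 lower in the processed signals, 368 lower with both channels required and 1337 lower without a filter. Matrix genes called higher numbered 0 in the scanner-signal fit, 2 with the trend, 3 without background correction and 2 in the deposited ratios. Those called lower numbered 0, and were 8 with median centring, 1 without background correction and 1 in the deposited ratios. Median centring moved the median of all genes by -2.03 and turned Dcn (-2.69), Lum (-1.94) and Bgn (-0.61) below 0. The shift of all genes is the alternative's own construction, and relative to it Lum and Bgn lay above the median of all genes and Dcn below it. Col1a1 (-1.95) and Col4a1 (-1.45) also lay above that median, and Col1a2, Col3a1 and Sparc below it. The cause of the other changes was not tested. In the processed signals limma called no matrix gene (3 higher and 2 lower at an unadjusted p under 0.05), with adjusted p of 0.0623 for Lum, 0.0985 for Dcn and 0.0956 for Col3a1. The log2 ratios of Lum, Dcn and Col3a1 there equal the deposited ones, while limma pooled the spread and adjusted over 8815 probes instead of 5072. Over the alternatives other than median centring, adjusted p ran from 9.2e-05 to 0.394 for Dcn, 0.00161 to 0.409 for Lum and 0.0090 to 0.489 for Col3a1. Of the values of single matrix genes under alternatives that kept both arrays, 41 of the scanner-signal fit kept direction and side of the threshold, 14 passed it and 3 reversed. The 5 of the deposited-ratio fit kept both.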
